A study of Drosophila melanogaster with 51 samples.

Results

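The genes described here encode the subunits of the proteasome, the protease complex that degrades ubiquitin-tagged proteins. They were chosen by symbol, as protein-coding genes whose name begins with Prosalpha, Prosbeta, Rpn or Rpt followed by a digit, and gave 48 of the 13968 protein-coding genes on the 7 chromosome arms of the annotation. Of these, 32 were main subunits and 16 were paralogues, duplicate genes that carry the suffix R or T, with or without a number. The data are ATAC-seq regions, stretches of DNA that a transposase could reach and cut in the chromatin, from untransfected Kc167 cells that received no copper (basal cells, 3 libraries). Kc167 is a Drosophila melanogaster cell line of embryonic origin that resembles hemocytes, the blood cells of the fly. The remaining 48 libraries of the series, from 12 stable lines that carry copper-inducible constructs, were not analysed here.

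The 26S proteasome consists of a barrel-shaped core and a regulatory particle. In the core, rings of alpha subunits close the entrance and rings of beta subunits carry the proteolytic sites. The regulatory particle has a base, in which Rpt ATPases unfold the substrate and Rpn subunits hold ubiquitin receptors and scaffolds, and a lid, in which Rpn11 removes ubiquitin chains. Dividing cells depend on the complex that the main subunits form, whereas many of the duplicate genes in Drosophila are known for expression in the male germline.

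The basal cells were represented by a list of 16118 open regions, each called in at least 2 of the 3 libraries. The list combines the libraries and holds positions only, so the coverage behind a region is unknown from it and no value has a replicate error. A gene was called open when a region overlapped the 250 bp on either side of any of its transcription start sites (TSSs), and closed otherwise, which means only that no region was called there. Shares are given with 95% Wilson intervals, which cover counting error only. No test across genes was made, because genes of 1 list are not replicates. As a check of the cell line, 7 of 9 hemocyte markers were open, among them the GATA factor srp (844 bp) and the collagen gene vkg (520 bp). The closed ones were NimC1 and He. Of all protein-coding genes, 47.8% were open. Only elav of 5 neuronal and Mlc2 of 4 muscle markers were open, as were mia and vas of 19 testis and male germline genes.

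The main subunit genes were mostly open and the paralogues mostly closed. Of the main subunits, 26 of 32 had an open TSS (81.3%, 64.7 to 91.1), compared with 1 of 16 paralogues (6.25%, 1.11 to 28.3). The intervals of these shares did not overlap. Among all protein-coding genes the share was 47.8% (6670 of 13968), which lay below the interval of the main subunits and above that of the paralogues. More than 1 TSS, at any of which a region counts, was annotated for 10 of the 32 main subunits and 2 of the 16 paralogues. Among genes with 1 TSS, 18 of 22 main subunits were open (81.8%, 61.5 to 92.7) and 1 of 14 paralogues (7.14%, 1.27 to 31.5), with a share of 39.8% among all genes of this kind. Over both classes together 27 of 48 genes were open (56.3%, 42.3 to 69.3).

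**Figure D1:**
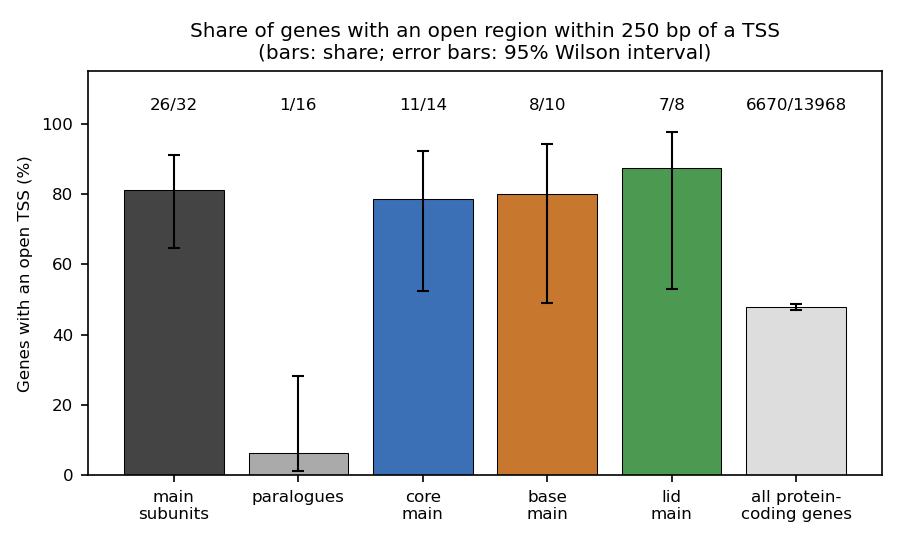
Bars give the percentage of genes with an open region within 250 bp of a TSS, error bars the 95% Wilson interval, and the fractions above them the counts. The main subunits stand at 81.3% and the paralogues at 6.25%, while core, base and lid main subunits lie between 78.6 and 87.5%.

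The promoters of 5 genes are shown here, because they hold the motif that recurred among the main subunits or because they are the exceptions among the paralogues. Each run is Release 6 sequence on the gene's own strand and ends 1 base before the TSS of the canonical transcript. It starts 150 bases upstream or, where an annotated exon lies closer, at the edge of that exon. Capitals mark the DNA replication-related element (DRE, TATCGATA), the binding sequence of the factor Dref at many housekeeping promoters. Prosalpha6 (chr2L:10221217-10221350, plus strand), Prosbeta2 (chr3L:14999801-14999950, plus strand) and Prosbeta6 (chr3L:16610419-16610568, minus strand) encode core subunits and were open.
Prosalpha6: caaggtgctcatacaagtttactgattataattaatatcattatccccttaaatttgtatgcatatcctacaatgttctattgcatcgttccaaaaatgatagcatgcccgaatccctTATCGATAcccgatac
Prosbeta2: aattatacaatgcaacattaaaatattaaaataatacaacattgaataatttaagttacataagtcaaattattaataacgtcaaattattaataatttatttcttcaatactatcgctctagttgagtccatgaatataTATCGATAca
Prosbeta6: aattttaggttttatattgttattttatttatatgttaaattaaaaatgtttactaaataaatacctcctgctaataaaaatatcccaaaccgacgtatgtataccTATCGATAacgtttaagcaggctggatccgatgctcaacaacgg
With the TSS counted as 0, the DRE began at base -16 in Prosalpha6, -10 in Prosbeta2 and -44 in Prosbeta6. Rpt3R (chr3R:9756215-9756364, minus strand) was the only paralogue with a DRE and was closed. Prosbeta2R2 (chr3R:5219529-5219656, minus strand) was the only open paralogue and holds neither a DRE nor the other motif in capitals below.
Rpt3R: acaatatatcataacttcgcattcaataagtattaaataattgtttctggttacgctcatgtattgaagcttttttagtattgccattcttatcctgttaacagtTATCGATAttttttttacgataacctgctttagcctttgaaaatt
Prosbeta2R2: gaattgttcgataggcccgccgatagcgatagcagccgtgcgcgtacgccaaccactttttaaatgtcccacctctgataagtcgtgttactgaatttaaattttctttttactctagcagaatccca

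A second group of main subunits carried motif 1 (GGTCACAC), which is bound by the factor M1BP. Short stretches of at most 29 bases around the match are shown for 4 genes, with the DRE of Rpt5 for comparison, on the gene's strand and with the motifs in capitals. The stretches lie at chr3R:12431330-12431353 for Prosalpha2, chrX:16276295-16276318 for Prosalpha4, chr3L:19915042-19915065 for Rpn1, chr3R:22462026-22462054 for Rpn7 and chr3R:23752822-23752845 for Rpt5.
Prosalpha2: cagcattcGGTCACACtgccgccc
Prosalpha4: catgctgcGGTCACACtgcggcat
Rpn1: cgccgcgcGGTCACACtgcaaaaa
Rpn7: attTATCGATAattttggGGTCACACtgg
Rpt5: gctgtcacTATCGATAagcgccgg
In Rpn7 both motifs follow each other just downstream of the TSS, with the DRE at bases 3 to 10 and motif 1 at bases 18 to 25, counted with the TSS as 0. In Prosalpha2, Prosalpha4 and Rpn7 motif 1 lies within the transcript, while in Rpn1 it straddles the TSS, with its first base at -1 and its last at 6.

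To ask whether the parts of the complex differ, the main subunits were divided into core, base and lid. The base comprised the Rpt ATPases with Rpn1, Rpn2, Rpn10 and Rpn13, and the lid the remaining Rpn genes. Open were 11 of 14 core genes (78.6%, 52.4 to 92.4), 8 of 10 base genes (80%, 49.0 to 94.3) and 7 of 8 lid genes (87.5%, 52.9 to 97.8). The intervals overlapped almost entirely, so that with 8 to 14 genes a part no difference between the parts was detectable. Within the core 5 of 7 alpha and 6 of 7 beta genes were open, and within the base 5 of 6 ATPase genes and 3 of 4 others.

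The alpha subunits form the outer rings of the core. Each of the 5 open alpha genes had a region over its TSS, of 128 to 307 bp. Prosalpha2 had a region of 154 bp at chr3R:12431250-12431403, from -71 to 82 bp around the TSS, and a further region of 133 bp centred at -254 bp. Prosalpha4 had 132 bp at chrX:16276230-16276361, overlapping the TSS window of kat80, which encodes a subunit of the microtubule-severing katanin. Prosalpha7 had 128 bp at chr2R:9847754-9847881, the narrowest of the regions over a TSS in the core, and CG1671 starts 225 bp away on the other strand. At 3 of the 5 open alpha genes the region over the TSS thus measured 128 to 154 bp. Prosalpha5 was wider, with 207 bp at chr2R:17412640-17412846. Prosalpha6 had the widest region over a TSS in the core, 307 bp at chr2L:10221179-10221485, which also covered the TSS of Npc1a, a gene of sterol transport that starts 135 bp away on the opposite strand. Prosalpha1 and Prosalpha3 were closed.

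The beta subunits include the catalytic ones, Prosbeta1, Prosbeta2 and Prosbeta5, with caspase-like, trypsin-like and chymotrypsin-like activity in that order. All 3 catalytic genes were open. Prosbeta1 had 238 bp at chr2R:16014725-16014962, shared with the TSS of the exosome gene Rrp42. Prosbeta5 had 187 bp at chr2R:10819876-10820062, shared with the TSS of dgo, a gene of planar cell polarity. At Prosbeta2 the widest region, 236 bp at chr3L:14999559-14999794, covered the TSS of mRpL39, a mitochondrial ribosomal protein gene, and a separate region of 166 bp at chr3L:14999876-15000041 covered the TSS of Prosbeta2 itself. Each catalytic gene was therefore open at its own TSS and had an open divergent neighbour.

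The remaining beta subunits are structural. Prosbeta3 had 156 bp at chr3R:9006127-9006282, overlapping the TSS window of Iru. Prosbeta6 had 148 bp at chr3L:16610344-16610491, centred 0.5 bp from the TSS. Prosbeta7 had 240 bp at chr3R:5358069-5358308, over the internal one of its 2 TSSs, and a second region of 126 bp further downstream. Of these 3 genes Prosbeta3 shared its region with a neighbour's TSS window, and the other two did not. Prosbeta4 was the closed beta gene.

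The Rpt ATPases form the ring that unfolds substrates, and the regions at 5 of the 6 were of similar width. They measured 182 bp at Rpt1 (chr2R:7653890-7654071), 189 bp at Rpt3 (chrX:11125118-11125306), 211 bp at Rpt4 (chrX:6291162-6291372), 223 bp at Rpt6 (chrX:21315920-21316142) and 241 bp at Rpt5 (chr3R:23752738-23752978). The range of 182 to 241 bp was narrower than that of the open alpha genes, 128 to 307 bp. At the 6 open beta genes the regions over the TSS measured 148 to 240 bp. The ranges overlapped, and each rests on 5 or 6 genes. Rpt4 starts 58 bp from mldr and Rpt5 42 bp from RanBP3, each on the opposite strand, and 1 region covered both TSSs of each pair. Rpt2 was closed.

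Of the other base subunits, Rpn1 and Rpn2 are scaffolds and Rpn10 and Rpn13 are ubiquitin receptors. Rpn1 had 237 bp at chr3L:19914886-19915122 and Rpn10 had 213 bp at chr3L:21536928-21537140, neither of them over the TSS of another gene. Rpn2 had 2 regions, of which the wider, 191 bp at chr3R:29153177-29153367, covered the TSS of the histone mRNA binding gene Slbp. The narrower, 138 bp at chr3R:29153443-29153580, covered the TSS of Rpn2. Rpn13 was closed, so that of the receptors Rpn10 and Rpn13 only Rpn10 was open.

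The lid held both the widest and the narrowest region of all main subunits. Rpn6 had 390 bp at chr2R:14752191-14752580, over its internal TSS and the TSS of ave, and no region at its canonical TSS. Rpn5 had 110 bp at chr3R:5789423-5789532 overlapping the TSS window of the histone acetyltransferase gene Hat1. Rpn11, the deubiquitinase of the lid, had 198 bp at chr2L:5059709-5059906, from -116 to 81 bp around the TSS. Rpn8, its partner in the lid, had 193 bp over its TSS at chr2R:24402871-24403063 and a wider one of 208 bp at chr2R:24402604-24402811 over the TSS of the kinase gene Slik. The deubiquitinase and its partner were therefore both open at their own TSS. Rpn3 had 175 bp at chr2L:19051807-19051981, overlapping the TSS window of l(2)37Bb, and Rpn7 had 166 bp at chr3R:22461977-22462142. Rpn9 had 121 bp at chr3R:23732936-23733056 over its internal TSS. Rpn12 was closed.

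**Figure D2:**
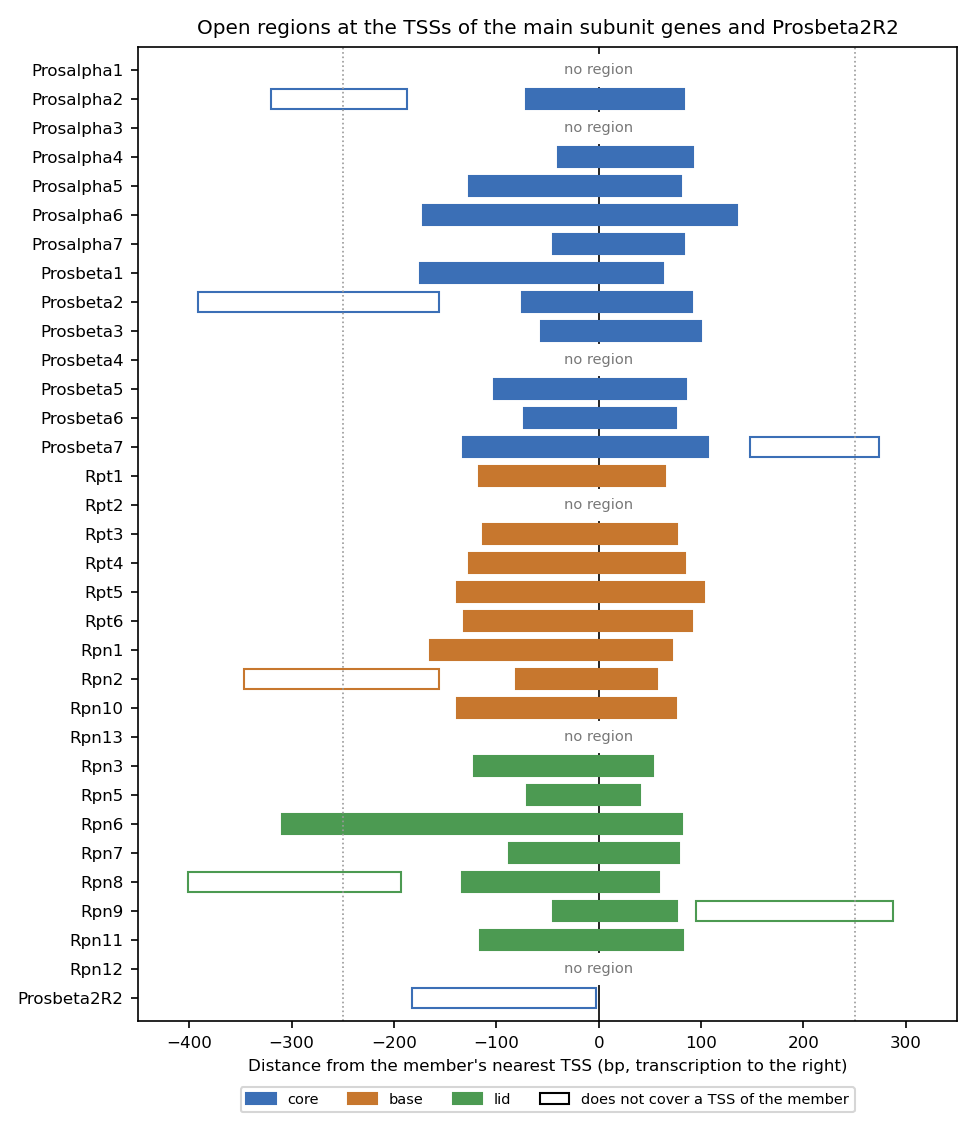
Each bar is an open region, drawn in bp from the member's TSS nearest to it with transcription to the right, for the 32 main subunits and the open paralogue Prosbeta2R2. Filled bars cover a TSS of the member, unfilled bars do not, and the dotted lines mark 250 bp on either side. All 26 open main subunits have a filled bar, and Prosbeta2R2 has only an unfilled one that ends 4 bp before its TSS.

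The regions were placed much as at other genes and had a lower median width. A region covered a TSS of the gene itself at all 26 open main subunits and at 6042 of all 13968 genes (43.3%), or 90.6% of the open ones. The canonical TSS was covered at 21 of the 26, and only another TSS at Prosbeta7, Rpt3, Rpn3, Rpn6 and Rpn9. The 26 regions over the TSSs of main subunits had a median upstream edge at -114.5 bp and a median downstream edge at 80.5 bp, and their midpoints lay upstream of the TSS in 18 of 26 cases. For the 6998 such regions of all genes the median edges were at -131 and 84 bp, and 4899 of the midpoints lay upstream. The region that covered the TSS had a median width of 188 bp at the main subunits (quartiles 154.5 and 220.5 bp, n = 26), compared with 220 bp at all genes with such a region (quartiles 175 and 335 bp, n = 6042). Among genes with 1 TSS the medians were 174 bp (n = 18) and 203 bp (n = 3625). The medians of the parts were 166 bp in the core, 212 bp in the base and 175 bp in the lid, and their ranges of 128 to 307, 138 to 241 and 110 to 390 bp overlapped.

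Wide regions were correspondingly uncommon among the open members. The widest region at an open member had a median of 192 bp (n = 27), compared with 232 bp at all open genes. A region of at least 200 bp was present at 12 of the 26 open main subunits (46.2%), compared with 64.7% of all open genes. Counted over all main subunits the share was 12 of 32 (37.5%), close to the 30.9% of all protein-coding genes. Only 6 of the 26 open main subunits had 2 regions in their windows (23.1%), compared with 44.3% of all open genes with 2 or more. Among open genes with 1 TSS, the widest region had a median of 189 bp at the 18 main subunits and 211 bp at all 4084 genes. A region of at least 200 bp was present at 7 of these 18 and 2303 of these 4084 genes, and a single region at 15 and 2668.

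**Figure D3:**
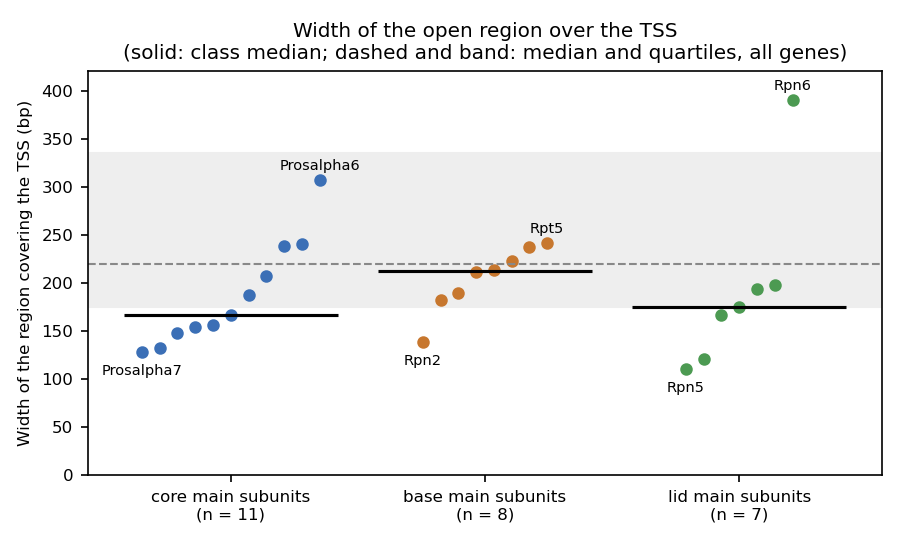
Points give the width in bp of the region that covers the TSS for each open main subunit, with solid lines at the median of the part and the dashed line and band at the median (220 bp) and quartiles of all genes. The lowest and highest gene of each part are named, from 110 bp at Rpn5 to 390 bp at Rpn6.

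Many subunit genes start close to a gene on the opposite strand that is transcribed away from them. Such a divergent TSS lay within 1 kb upstream of 20 of 32 main subunits (62.5%), 4 of 16 paralogues (25%) and 34.0% of all protein-coding genes. Among open genes alone, it was present at 15 of the 26 main subunits and at 3422 of all 6670 genes. At 6 main subunits, namely Prosalpha6, Prosbeta1, Prosbeta5, Rpt4, Rpt5 and Rpn6, the region over the member's TSS also covered that of another gene. This was 6 of the 26 main subunits with such a region (23.1%), compared with 1211 of 6042 genes (20.04%). At 11 of the 27 open members any region in the window covered the TSS of another gene, compared with 34.5% of all open genes. The state of the neighbour was the same as that of the subunit in 19 of the 20 main subunits with a divergent TSS (95%), compared with 85.0% of the 4755 such genes in all. Prosalpha1 is counted among the 19 as closed, although its state is unknown because its TSS window holds no unique sequence. Open main subunits had an open neighbour in 15 of 15 cases, which for several of them rests on the same region, compared with 90.4% of the 3422 open genes with a divergent TSS. Of the closed main subunits, Prosalpha1, Prosalpha3, Prosbeta4 and Rpt2 had a closed neighbour (CG18853, dgt3, Nubp1 and CG13599), and Rpn13 had the open neighbour CtsL1, 349 bp away.

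The 6 closed main subunits came from all 3 parts. They were Prosalpha1, Prosalpha3 and Prosbeta4 in the core, Rpt2 and Rpn13 in the base and Rpn12 in the lid. For Prosalpha1 the list cannot answer the question. None of the stretches of 50 bases in its TSS window occurs at a single place in the genome (a unique share of 0%), and reads with several alignments had been dropped by the authors. The unique share was also 0% at its closed copy Prosalpha1R, whose predicted protein is 100% identical. The other 5 had a unique share of 100%. Their nearest region lay 1169 bp away at Rpn12, 1720 bp at Prosalpha3, 1892 bp at Rpt2, 1916 bp at Rpn13 and 2310 bp at Prosbeta4, in each case downstream of the TSS. The median distance over the 6, with Prosalpha1 included, was 1900 bp, compared with 4568 bp over all 7298 closed protein-coding genes.

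The closed main subunits were mostly those that have a paralogue, a split that was noticed after the values were seen. Of the 12 main subunits with a paralogue 7 were open (58.3%, 32.0 to 80.7), compared with 19 of the 20 without one (95%, 76.4 to 99.1). Without Prosalpha1 the count was 7 of 11 (63.6%, 35.4 to 84.8). The intervals with and without a paralogue overlapped. The share of all protein-coding genes, 47.8%, lay inside the interval of the main subunits with a paralogue, also without Prosalpha1. It lay below the interval of those without a paralogue. Rpt2 was the closed gene without a paralogue.

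The paralogues differed widely in sequence, and 15 of the 16 were closed. The identity of their predicted protein to that of the main subunit ran from 28.7% at Rpn13R to 100% at Prosalpha1R, with a median of 55.7%. A single coding exon was annotated for 4 of the 32 main subunits and 6 of the 16 paralogues. Such genes were not counted over all protein-coding genes. Closed at a unique share of 100% were 14 paralogues, so that among the paralogues only Prosalpha1R was without unique sequence. The most conserved ones besides Prosalpha1R were ATPase copies, with identities of 80.1% at Rpt3R, 81.9% at Rpt4R and 87.4% at Rpt6R, and all 3 were closed. Their main subunits Rpt3, Rpt4 and Rpt6 were open. The same held for Prosalpha4 with Prosalpha4T1 (75.1%) and Prosalpha4T2 (59.9%), Prosalpha6 with Prosalpha6T (56.3%), Prosbeta2 with Prosbeta2R1 (55.0%), and Prosbeta5 with Prosbeta5R1 (53.1%) and Prosbeta5R2 (51.2%). In the families of Prosalpha3 (Prosalpha3T, 58.7%), Prosbeta4 (Prosbeta4R1, 40%, and Prosbeta4R2, 52.4%), Rpn12 (Rpn12R, 49.8%) and Rpn13 the main subunit and its copies were all closed.

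Prosbeta2R2, whose protein is 36.5% identical to that of Prosbeta2, was the open paralogue. Its region of 179 bp at chr3R:5219532-5219710 ended 4 bp upstream of the TSS and covered the TSS of CG1116, which starts 129 bp away on the opposite strand. No paralogue had a region over its own TSS. Among the closed paralogues, the nearest region lay 268 bp away at Prosbeta5R2, just beyond the window, 1257 bp at Rpt6R and 1437 bp at Rpt3R. It lay 2842 bp away at Rpt4R, 3995 bp at Prosalpha3T, 5001 bp at Prosalpha1R, 5593 bp at Rpn12R and 6155 bp at Prosbeta2R1, the median of the 15. The remaining ones were at 9399 bp for Prosalpha6T, 12235 bp for Prosalpha4T2, 13185 bp for Prosalpha4T1, 22167 bp for Prosbeta4R2, 24515 bp for Prosbeta4R1, 44804 bp for Prosbeta5R1 and 45266 bp for Rpn13R. The distances thus spread far more widely than those of the closed main subunits. No region was found in the gene or the 2 kb upstream for 5 of the 6 closed main subunits and 12 of the 15 closed paralogues. These counts include Prosalpha1 and Prosalpha1R, whose state is unknown, and the share over all closed genes was not computed.

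**Figure D4:**
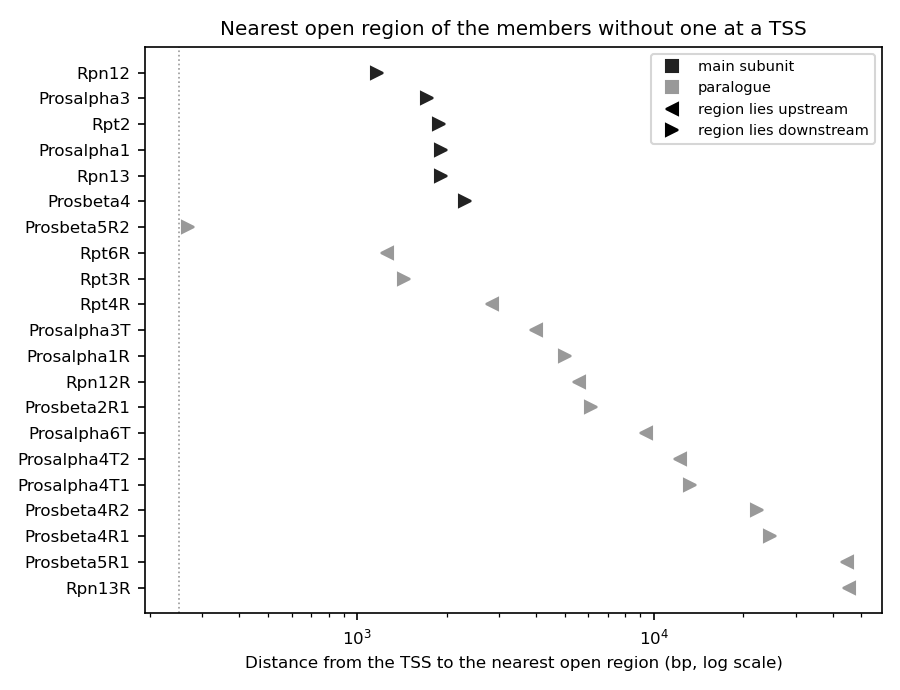
Triangles give the distance in bp on a log scale from the nearest TSS to the nearest open region for the 21 closed members, dark for main subunits and grey for paralogues, pointing left where the region lies upstream and right where it lies downstream. The main subunits lie between 1169 and 2310 bp, and the paralogues between 268 and 45266 bp.

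Promoter motifs were then counted on both strands in the 250 bp before and 50 bp after the canonical TSS, and overlapping matches of different motifs were all counted. The DRE was present at 11 of 32 main subunits (34.4%, 20.4 to 51.7) and 1 of 16 paralogues (6.25%, 1.11 to 28.3), compared with 8.95% of all protein-coding genes and 14.6% (13.8 to 15.5) of all open ones. The interval of the main subunits lay above the share of all open genes. This difference was not tested, and the interval makes no allowance for the several motifs searched. It was present at 6 of 14 core, 1 of 10 base and 4 of 8 lid genes, with overlapping intervals (21.4 to 67.4, 1.79 to 40.4 and 21.5 to 78.5%). Besides the promoters printed above and those of Rpt5 and Rpn7, a DRE was found at Prosalpha3, Prosalpha5, Prosbeta1, Rpn3, Rpn9 and Rpn12. In 7 of the 9 open main subunits with a DRE the match lay inside the open region. The exceptions were Rpn3 and Rpn9, at which the region covered another TSS than the canonical one. How often a DRE lies inside the region at open genes in general was not counted. A DRE was also present at the closed genes Prosalpha3, Rpn12 and Rpt3R.

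Motif 1 was found at 6 of 32 main subunits (18.8%, 8.89 to 35.3) and at 0 of 16 paralogues (interval up to 19.4%), compared with 7.53% of all genes and 13.8% of all open ones. This interval included the share of all open genes. The genes were Prosalpha2, Prosalpha4, Prosbeta3, Rpn1, Rpn7 and Rpn8, all open, and in 5 of the 6 the match lay inside the region, all but Prosbeta3. For motif 1, too, matches inside the region were not counted over all open genes. Either motif was present at 16 of the 32 main subunits (50%), compared with 26.6% of all open genes, and both at Rpn7 alone.

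For none of the other motifs did the interval of the main subunits lie above the share of all genes. The antioxidant response element (TGACNNNGC), the binding sequence of the Cnc and Maf-S factors that raise proteasome gene transcription under proteotoxic stress, was found at 5 of 32 main subunits (15.6%, 6.86 to 31.8) and 1 of 16 paralogues, compared with 8.48% of all genes and 8.74% of open ones. The main subunits with a match were Prosalpha2, Prosbeta3, Rpt6, Rpn1 and Rpn7, and at Prosbeta3 and Rpn1 it overlapped motif 1. The paralogue was Prosbeta4R2. TATAAA was found at 13 of 32 main subunits (40.6%), 5 of 16 paralogues and 45.3% of all genes. CAGCTG was found at Rpt3 and Rpn8 alone among the main subunits (6.25%, 1.73 to 20.1), compared with 17.9% of all genes and 21.8% of open ones. GAGAGAG was found at 0 of 32 main subunits (interval up to 10.7%) and at 2 paralogues, compared with 6.20% of all genes. Base composition differed between the promoter classes beside these counts, with a median GC content of 33.6% in the main subunits, 32.6% in the paralogues, 37.5% in all open genes and 38.2% in all genes, and its part in the motif shares was not tested.

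**Figure D5:**
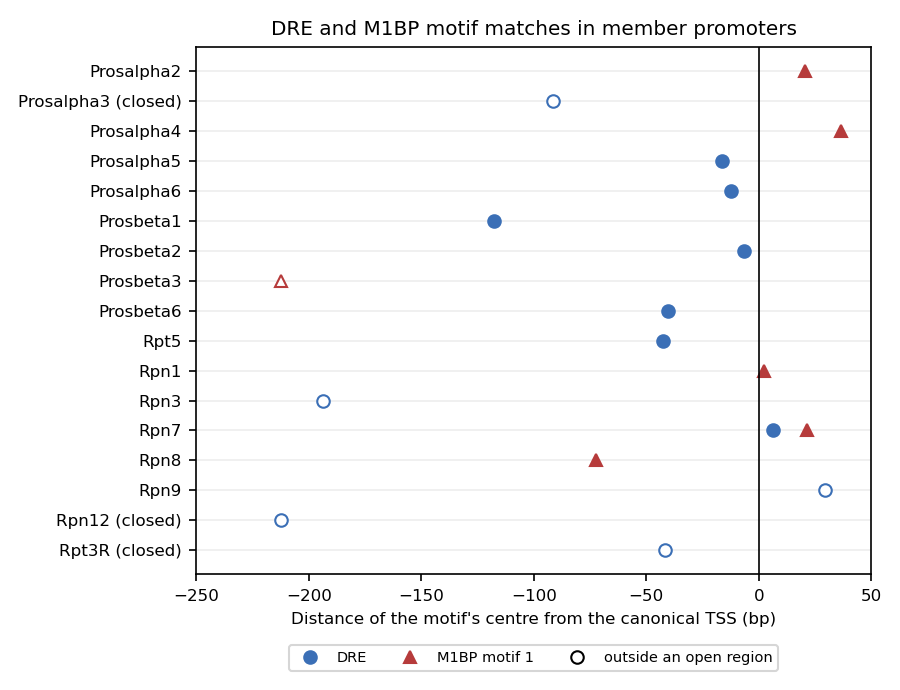
Symbols mark the centre of each DRE (circles) and motif 1 (triangles) in bp from the canonical TSS for the members with a match, filled where the match lies inside an open region. Of the main subunits that were open, 7 of 9 with a DRE and 5 of 6 with motif 1 have the match inside the region. The same was not counted over all open genes.

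Genes that act with the proteasome were also largely open. A list of 22 genes covered ubiquitin supply, assembly and regulation, shuttle factors, the segregase that extracts ubiquitinated proteins and transcriptional regulators. Of these, 20 were open, compared with 47.8% of all protein-coding genes. The open ones were 4 of 5 genes of ubiquitin supply and activation and 5 of 6 assembly factors, activators, inhibitors and associated deubiquitinases. All 3 shuttle factors, 4 segregase genes and 4 transcription factors and their regulators were open as well. The closed genes were RpL40, which encodes a ubiquitin fused to a ribosomal protein, and ntc, an F-box protein that binds the proteasome regulator PI31. The widest regions were those of the ubiquitin-activating enzyme Uba1 (1037 bp), the transcription factor gene cnc (903 bp) and its regulator Keap1 (781 bp). The widest region at the open proteasome members had a median of 192 bp, compared with 260.5 bp over the 20 open genes of this list (136 to 1037 bp). Of these 20 genes, 13 reached 200 bp. Over all open protein-coding genes the median was 232 bp, and 64.7% reached 200 bp.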

How the data were processed

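ATAC-seq was carried out by the authors on basal Kc167 cells (3 libraries). Per the labels and the study's methods, the authors aligned the reads to dm6, leaving out scaffolds, with Bowtie 1.2.2, kept those with a single alignment, offset them by 4 bp (plus strand) or 5 bp (minus strand), extended them by 5 bp on either side and called regions per replicate with MACS2 2.1.1.20160309 (shift -45, extension 100, q threshold 0.01). The deposited list is the union of regions found in at least 2 of 3 replicates. It holds chromosome, start and end, with no score, so no local coverage, interval of a signal or replicate error could be derived.

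Regions were compared with TSSs of Ensembl release 115 (BDGP6, version 54) on the Release 6 sequence, which is dm6, with positions counted from 1. An overlap of 1 bp with the TSS window sufficed. The unique share is the percentage of stretches of 50 bases in the window that occur at a single place on the 7 arms. No source used here states the read length. For genes with several TSSs the highest share is given. Protein identities come from global alignments of translated coding sequences (BLOSUM62). Wilson intervals (95%) were computed with SciPy 1.17.1 under Python 3.11.15, with NumPy 2.4.6, Biopython 1.88 and Matplotlib 3.10.9. The overlap and uniqueness steps were tested on simulated data and by plain string counting.

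The members and lists were chosen with earlier results of these data known. Every member is named. Of other genes, those that share a region or TSS window with a member are named, except 1 that is not reported here, with the 3 widest and all closed genes of the list of proteasome-associated genes. Ufd1-like was matched as Ufd1 through RefSeq synonyms, and rye, a synonym of the listed Taf12L, was left out. Divergent neighbours that share no region were named after their values were seen. The alternatives were TSS windows of 100 and 500 bp, regions of at least 200 bp, an overlap of at least 100 bp, the canonical TSS only, TSS windows with a unique share of at least 90%, and promoters of 100 bp before to 50 bp after the TSS. An alternative that counts only regions covering a TSS was added after seeing the data.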

Additional observations from a re-analysis of the deposited data

How the results depend on the processing

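Each of 7 values (6 counts of open genes and the median width of the widest region) was recomputed under 7 alternatives, and 41 of the 49 recomputed values stayed within 1.5 times the original. With regions of at least 200 bp only, 12 members were open, all of them main subunits (12), with 0 paralogues, 5 core, 5 base and 2 lid genes. The share of all protein-coding genes was then 30.9%. With TSS windows of 500 bp, 2 of 16 paralogues were open (12.5%), compared with 50.4% of all protein-coding genes. With only regions that cover a TSS, an alternative chosen after seeing the data, 0 were, compared with 43.3% of all genes. With unique TSS windows only, 26 of 31 main subunits (83.9%) and 1 of 15 paralogues (6.67%) were open, compared with 49.1% of all genes. The other counts of main subunits were 25 to 26, with 25 under the canonical TSS only, where Rpn6 was closed. The median width was 188 to 236.5 bp. In promoters that begin 100 bp before the TSS, the DRE was found at 8 main subunits (25%), compared with 12.1% of all open genes. Motif 1 was found at 5 (15.6%, open genes 11.7%) and the antioxidant response element at 4 (12.5%, open genes 6.01%). TATAAA was found at 6 (18.8%, open genes 16.6%) and CAGCTG at 0 (open genes 16.0%).

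No paired analysis was possible because the list holds no values per library, and for the same reason no replicate was left out. The study states the read totals of the libraries, but the list gives no coverage at a region, so closed means only that no region was called. A signal track of the basal libraries named in the labels was not analysed here. The authors' q threshold was not varied, since the regions carry no q value. The state of Prosalpha1 and Prosalpha1R is unknown, since their TSS windows hold no unique stretch.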
